A study of Mus musculus with 24 samples.

Results

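Epithelial cells sorted from the ileum of KO chimeras at 8 weeks after chimerism were compared with epithelial cells sorted from the ileum of all WT mice of the study. The members were fixed by their labels: the 3 ileum libraries of KO late-stage mice were set against 5 WT ileum libraries pooled as 1 control group, and every gene in the deposited table was considered. These 8 libraries come from 24 in the series, which covers ileum and colon of mice sampled at an early and a late stage. The title of the series names IL-10Rα-deficient gut macrophages that produce IL-23 and an epithelial response driven by IL-22, and the libraries hold the epithelial side of that question. The design text speaks of colonic macrophages, but the sample labels give Villin-tomato+ CD45-negative cells, which is epithelium marked by a reporter under the Villin promoter.

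The KO late-stage group held 3 mice (numbers 49, 50 and 57) at 8 weeks after chimerism. The WT irradiated group held 2 mice (59 and 61), also at 8 weeks after chimerism, and the WT non-irradiated group held 3 untreated mice (72, 73 and 75). All were C57BL/6 mice aged 8 to 14 weeks. The labels give the genotype of the chimeras only as KO or WT. They do not say what was transplanted; in a bone marrow chimera the blood-derived cells carry the donor genotype while the epithelium stays that of the recipient. Il10ra in sorted epithelium is therefore no check of the labels. Il10ra was near background, with 4.0, 10 and 8.5 normalised reads in KO late mice, against 5.5 and 8.6 in WT irradiated and 1.6, 7.5 and 12.9 in WT non-irradiated mice. Because the control pool mixes irradiated chimeras with mice that were never irradiated, the KO late group differs from part of it in irradiation and transplantation as well as in genotype.

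IL-10 restrains gut macrophages, and macrophages that cannot sense it release IL-23, which drives lymphocytes to make IL-22. IL-22 acts on epithelial cells through Il22ra1, Il10rb and Stat3 and is known for raising antimicrobial lectins of the Reg3 family, serum amyloid A proteins and Fut2. Interferon-gamma from lymphocytes acts on the same cells and is known for raising guanylate-binding proteins, immunity-related GTPases, Ido1 and Cd274. The ileal epithelium also absorbs bile acids and lipids, converts dietary retinoids, and expresses cytochrome P450 enzymes and glutathione transferases that handle foreign compounds.

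The 8 libraries held 10.6 to 18.7 mega (M) reads, of which 0.130 to 25.4% lay in the ribosomal RNA precursor Rn45s, and 7.94 to 18.6 M reads remained without it. Values are normalised reads, that is, reads divided by a factor per library, and 1 read was worth 0.781 to 1.49 of them. The sorted cells carried the defining epithelial markers (Epcam, Vil1, Cdh1, keratins and others, 9 genes) at 12006 to 14853 reads per M in KO late and 10825 to 15662 in WT libraries. Myeloid markers summed to 47.4 to 54.5 reads per M in KO late and 42.9 to 67.6 in WT libraries. Reads in olfactory and vomeronasal receptor genes, which epithelium should not express, came to 266, 417 and 392 reads per M in KO late libraries, against 155 and 391 in WT irradiated and 188, 310 and 370 in WT non-irradiated libraries, with no difference shown (exact two-sided permutation test, p = 0.321). The first principal component (44.0% of the variance) ran along this background and mixed KO late with WT libraries.

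No gene in the ileum passed the test at 8 weeks. Of 17948 genes tested, 0 had a limma adjusted p under 0.05 (0%), and edgeR on recovered reads also called 0. DESeq2 on the same reads called 21 (0.117%), of which 4 were higher and 17 lower in KO late mice. At an unadjusted limma p under 0.05, 234 genes (1.3%) were higher and 273 (1.52%) lower, together 507 (2.82%), and edgeR gave 514 (2.86%). In 236 genes (1.31%) all KO late libraries lay above all WT libraries, and in 209 (1.16%) all lay below, together 445 (2.48%). The median log2 fold change of all genes tested was 0.03, and 54.5% of genes had one above 0. The labels do not state that replicates came from separate cohorts or sorting days, so the p-values measure the spread between these 8 mice.

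The genes with the smallest p in each direction, none of which passed the test after adjustment with limma, were mostly enzymes, of retinoid, drug and hormone metabolism among others, on the lower side. On the higher side they were a mixed set with the interferon-gamma target Cd274 and the growth factor Areg among them. DESeq2 called 13 of these 20 leading genes, against 0.117% of all genes. The 20 were picked from the same libraries for a small limma p and no overlap between the groups, so this count is no separate support. Where no overlap is given for a leading gene below, the choice required it.

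**Figure D1:**
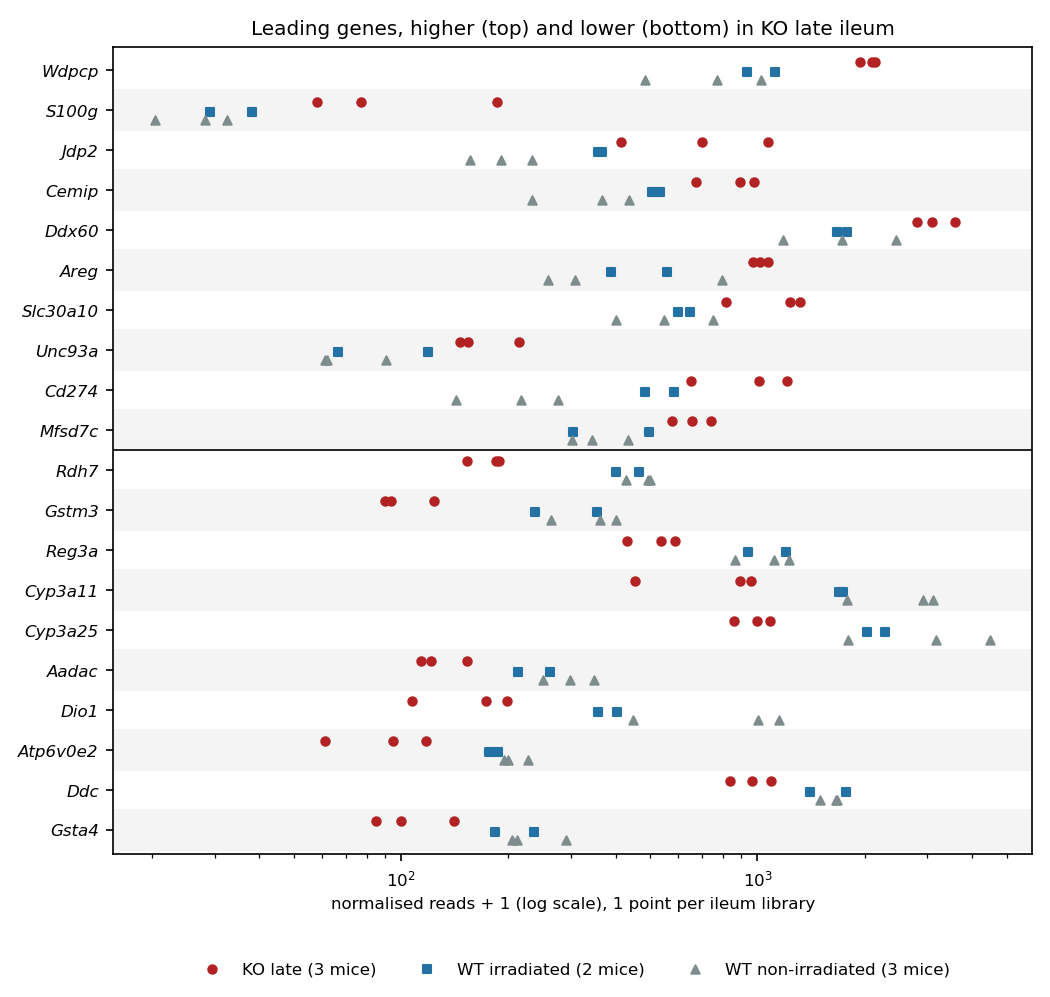
Normalised reads plus 1 (log axis) of the 20 leading genes in each ileum library, with KO late mice (circles) above WT irradiated (squares) and WT non-irradiated mice (triangles) in each row; each point is 1 library. The KO late points lie apart from all WT points in every row, which the choice of leading genes required, and the distance is narrow for genes such as Mfsd7c.

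Rdh7, a short-chain dehydrogenase of retinol metabolism, had the smallest p. It measured 187, 152 and 183 normalised reads in KO late mice, against 399.8 and 464 in WT irradiated and 428, 492 and 498 in WT non-irradiated mice. The KO late libraries all lay below the WT libraries, and both WT groups were at a like level. The log2 fold change was -1.39 ± 0.17 (SE), a level 2.62 times lower, with a limma adjusted p of 0.0511 and a DESeq2 adjusted p of 3.43e-11. With limma it was called under TMM scaling, with no filter and with a filter of 50 normalised reads. It was also called with receptor reads as a covariate and without WT irradiated mouse 59. Among other settings, it was not called with scaling by totals (limma adjusted p = 0.112), or without KO late mouse 50 (0.544) or 57 (0.364). With all 12 ileum libraries in the fit the SE was 0.48 and the limma adjusted p was 0.998. Of 17 tested genes of retinoid metabolism, 3 had an unadjusted p under 0.05, all lower (1.52% of all genes): besides Rdh7 these were Bco1, which cleaves beta-carotene, at a log2 fold change of -1.01, and Adh1, an alcohol dehydrogenase that oxidises retinol, at -0.76. The list median was -0.20, against 0.03 for all genes, and it was 0.08 without KO late mouse 57. The retinol-binding protein Rbp2 had a log2 fold change of 0.05 ± 0.35.

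Genes of xenobiotic metabolism had more members on the lower side than on the higher side in KO late ileum. Of 31 listed and tested, 10 had an unadjusted p under 0.05 on the lower side, where the share among all genes was 1.52%, and 0 on the higher side. In 7 of the 31 all KO late libraries lay below all WT libraries, where the share among all genes was 1.16%. With DESeq2, 6 were called lower, where the share among all genes was 0.0947%. Their median log2 fold change was -0.28, with 25 negative and 6 positive, and it stayed between -0.41 and -0.18 when single libraries were left out. Against WT irradiated mice alone the median was -0.33, with 9 lower at an unadjusted p under 0.05 (0.44% of all genes). Against WT non-irradiated mice alone it was -0.39, with 10 lower (1.42% of all genes). No member passed the limma test in any of these. These 2 contrasts share the KO late mice and are set side by side only as values.

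Gstm3, a glutathione S-transferase, measured 123, 92.6 and 89.3 normalised reads in KO late mice, against 236 and 354 in WT irradiated and 360.5, 262 and 400.5 in WT non-irradiated mice. Its groups did not overlap, and the log2 fold change was -1.64 ± 0.23 (limma adjusted p = 0.0823, DESeq2 adjusted p = 1.35e-07). Cyp3a11, the major drug-oxidising cytochrome P450 of mouse intestine and liver, measured 890.4, 956 and 452 in KO late mice, against 1690.1 and 1734 in WT irradiated and 3116, 1784 and 2921 in WT non-irradiated mice. All 3 KO late values were below the lowest WT value, and KO late mouse 57 was the lowest of them. The log2 fold change was -1.57 ± 0.29 (limma adjusted p = 0.420, DESeq2 adjusted p = 0.00171). Its relative Cyp3a25 measured 995, 1085 and 858 in KO late mice, against 2032 and 2282 in WT irradiated and 3165, 1799.9 and 4500.4 in WT non-irradiated mice. Again no values overlapped, which the choice of leading genes required, and the log2 fold change was -1.41 ± 0.27 (limma adjusted p = 0.420).

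Gsta4, which detoxifies products of lipid peroxidation, measured 84.1, 139.5 and 98.8 in KO late mice, against 183 and 236 in WT irradiated and 204, 210.3 and 289 in WT non-irradiated mice, a log2 fold change of -1.07 ± 0.23. Cyp2c66 and Cyp2c55, cytochrome P450 enzymes of the 2c family, had log2 fold changes of -1.62 ± 0.41 and -1.27 ± 0.32. For Cyp2c66 the WT irradiated values lay between those of KO late and WT non-irradiated mice: it measured 78.8, 81.5 and 52.2 in KO late, 97.4 and 154 in WT irradiated, and 381, 210.3 and 388 in WT non-irradiated mice. Gstm1 had a log2 fold change of -0.89 without overlap. Cyp2d26 (-1.28), Cyp2c65 (-0.55) and the carboxylesterase Ces2a (-0.69) were the other 3 with an unadjusted p under 0.05, and their groups overlapped. The receptors on the list that regulate such enzymes, Nr1i3 and Ahr, had log2 fold changes of 0.03 ± 0.32 and 0.07 ± 0.18. Members of the Cyp2c, Cyp3a, Gsta and Gstm families resemble each other in sequence, and the sources used here do not say how reads shared between them were counted.

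**Figure D2:**
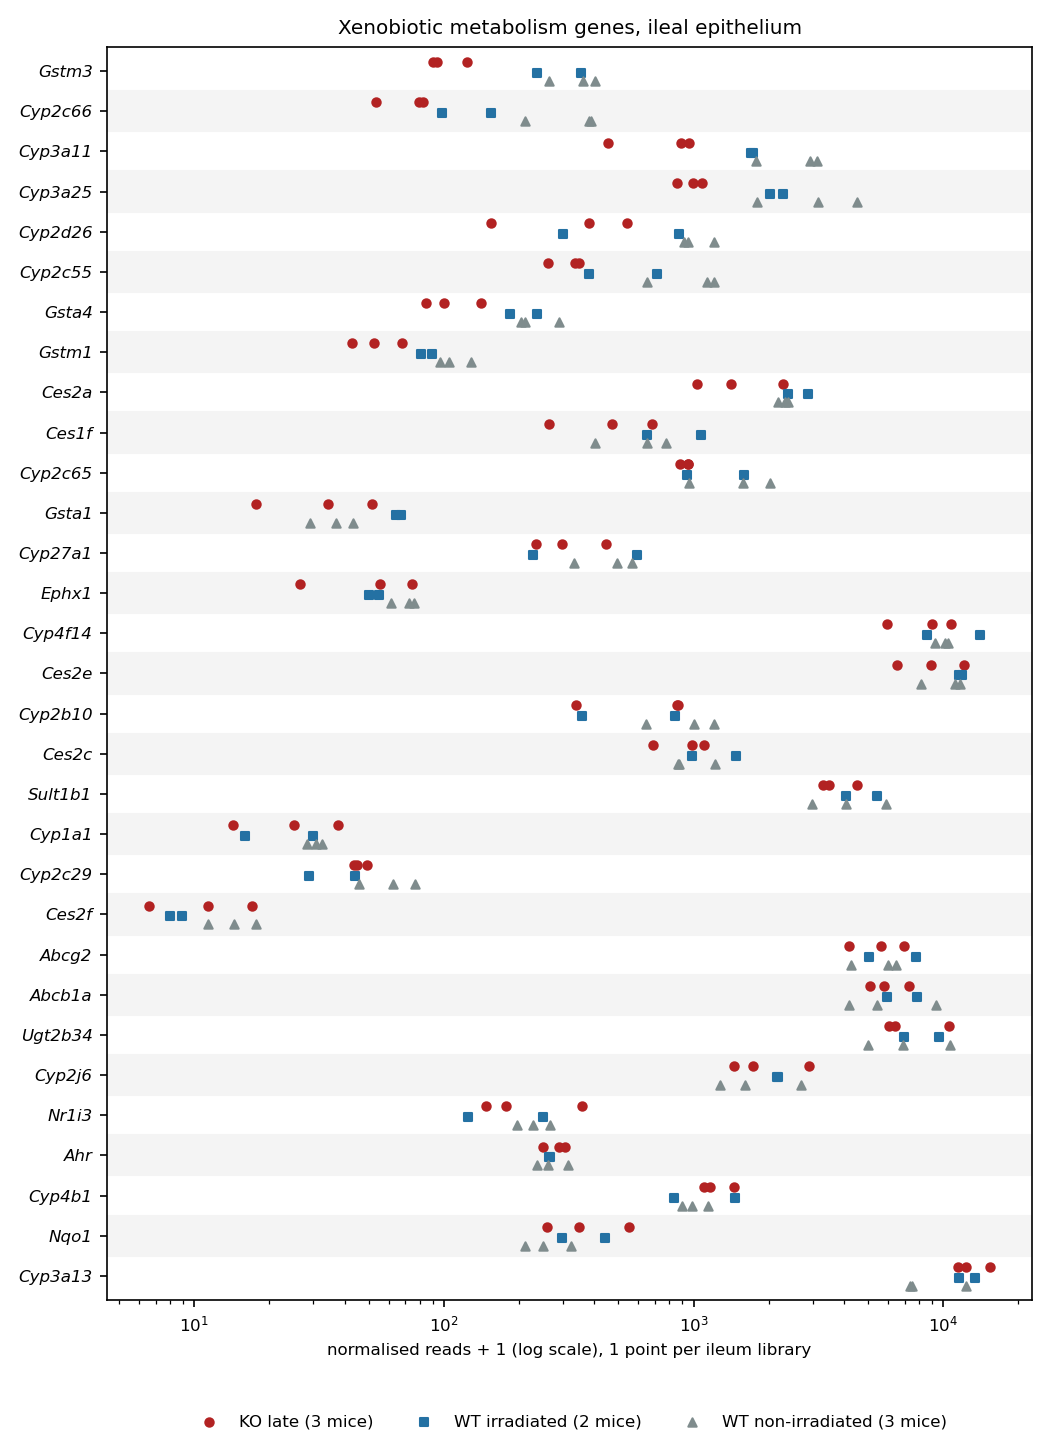
Normalised reads plus 1 (log axis) of the 31 genes of xenobiotic metabolism in each ileum library, ordered from the most negative log2 fold change at the top; KO late mice (circles) are drawn above WT irradiated (squares) and WT non-irradiated mice (triangles). The KO late points lie left of all WT points for 7 genes in the upper part, Gstm3 and Cyp3a11 among them, while the lower rows overlap.

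Among the other leading genes on the lower side, Dio1, the deiodinase that converts thyroid hormone, had the largest log2 fold change, -1.94 ± 0.39. It measured 172, 198 and 106 normalised reads in KO late mice, against 402 and 355 in WT irradiated and 999.9, 446 and 1149.8 in WT non-irradiated mice. The groups did not overlap, and the WT irradiated mice lay below the WT non-irradiated mice. Aadac, a microsomal esterase, had a log2 fold change of -1.07 ± 0.21, Ddc, which decarboxylates aromatic amino acids, -0.73 ± 0.16, and Atp6v0e2, a subunit of the proton-pumping ATPase, -1.16 ± 0.24. Their limma adjusted p-values were 0.550, 0.797 and 0.598, and DESeq2 called all 3.

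The interferon-gamma inducible genes had the highest median of the 36 lists against all WT mice. Of 27 members, all tested, 26 had a positive log2 fold change and the median was 1.01, against 0.03 for all genes. At an unadjusted limma p under 0.05, 17 were higher, where the share among all genes was 1.3%, and in 8 (Iigp1, Tgtp1, Tgtp2, Gbp2, Gbp3, Gbp4, Ido1 and Cd274) all KO late libraries lay above all WT libraries, where the share among all genes was 1.31%. None passed after adjustment with limma, edgeR or DESeq2. The median differed with the WT mice used as control. Against WT non-irradiated mice alone the median was 1.43, with 18 higher at an unadjusted p under 0.05 (2.06% of all genes). Against WT irradiated mice alone it was 0.39, with 5 higher (0.379% of all genes). Between the WT groups themselves, irradiated over non-irradiated, it was 0.80, with 12 higher (0.607% of all genes) and 0 called by limma. These contrasts share libraries, so their values are not independent.

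Against WT non-irradiated mice alone, limma called 4 genes in the whole table (0.0223%), all of them on this list and all higher in KO late mice: Ubd (adjusted p = 0.00558), Gbp2 (0.0154), Cd274 (0.0479) and Ido1 (0.0479). Gbp2, a guanylate-binding protein that attacks vacuoles of intracellular pathogens, measured 627, 610.4 and 1384 normalised reads in KO late mice, against 377 and 514 in WT irradiated and 81.7, 127 and 116 in WT non-irradiated mice. The 3 groups formed separate steps, with KO late highest. Its log2 fold change was 2.10 ± 0.54 against all WT (limma adjusted p = 0.859), 2.92 against WT non-irradiated and 0.88 against WT irradiated mice.

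Ubd, a ubiquitin-like modifier, measured 1663, 1324 and 2846 in KO late mice, against 1019 and 1453 in WT irradiated and 276, 195 and 176 in WT non-irradiated mice. KO late mouse 50 lay below WT irradiated mouse 61, so KO late and WT irradiated mice overlapped, while the WT non-irradiated mice lay apart. Cd274, which encodes the checkpoint ligand PD-L1, measured 1012, 648 and 1212 in KO late mice, against 481 and 582 in WT irradiated and 216, 274 and 141 in WT non-irradiated mice. Here the KO late values stood above both WT groups, and the log2 fold change against all WT was 1.63 ± 0.40. Ido1, which degrades tryptophan, measured 3004, 3107 and 2799.7 in KO late mice, against 2550.5 and 1566 in WT irradiated and 742, 993 and 1076 in WT non-irradiated mice, a log2 fold change of 1.24 ± 0.32 against all WT.

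Iigp1, an immunity-related GTPase, measured 168, 209 and 655 in KO late mice, against 83.1 and 158 in WT irradiated and 20.8, 50.7 and 35.1 in WT non-irradiated mice. Its log2 fold change against all WT was 2.35 ± 0.59, and KO late mouse 57 was the highest of all 8 mice. The related Igtp measured 1128, 693 and 2028 in KO late mice, against 628 and 891 in WT irradiated and 222, 365 and 225 in WT non-irradiated mice, with overlap between KO late and WT irradiated. Irf1, a transcription factor that is an early target of the pathway, had a log2 fold change of 0.16 ± 0.26. The chemokines Cxcl9 and Cxcl10 had 0.21 ± 0.40 and 0.13 ± 0.46 at under 50 normalised reads in every library. The Gbp, Tgtp and Irgm genes are families of close copies, so how reads split between members is uncertain.

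Lymphocyte markers stood out in the library of KO late mouse 57, which also had the highest sum over the interferon-gamma list, 2625 reads per M, against 2016 and 1680 in the other KO late mice and 1079 to 1816 in WT mice. The part of either in the other was not tested. The summed T, NK and B lymphocyte markers (20 of 21 listed, tested or not) came to 45.9, 72.5 and 206.7 reads per M in KO late mice 49, 50 and 57. In the WT libraries they came to 48.0 to 76.7. Gzma, a granule protease of cytotoxic lymphocytes, is part of that sum. It measured 22.7, 60.3 and 1171 in KO late mice, against 71.2 and 130.4 in WT irradiated and 38.5, 20.9 and 66.4 in WT non-irradiated mice. The median log2 fold change of the lymphocyte list (17 tested) was 0.53, and it was -0.13 without mouse 57. Without mouse 57 the interferon-gamma list had a median of 0.76, with 22 positive and 10 higher at an unadjusted p under 0.05 (0.618% of all genes). In these bulk samples, a change in the number of cells of a type and a change in RNA per cell cannot be told apart.

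**Figure D3:**
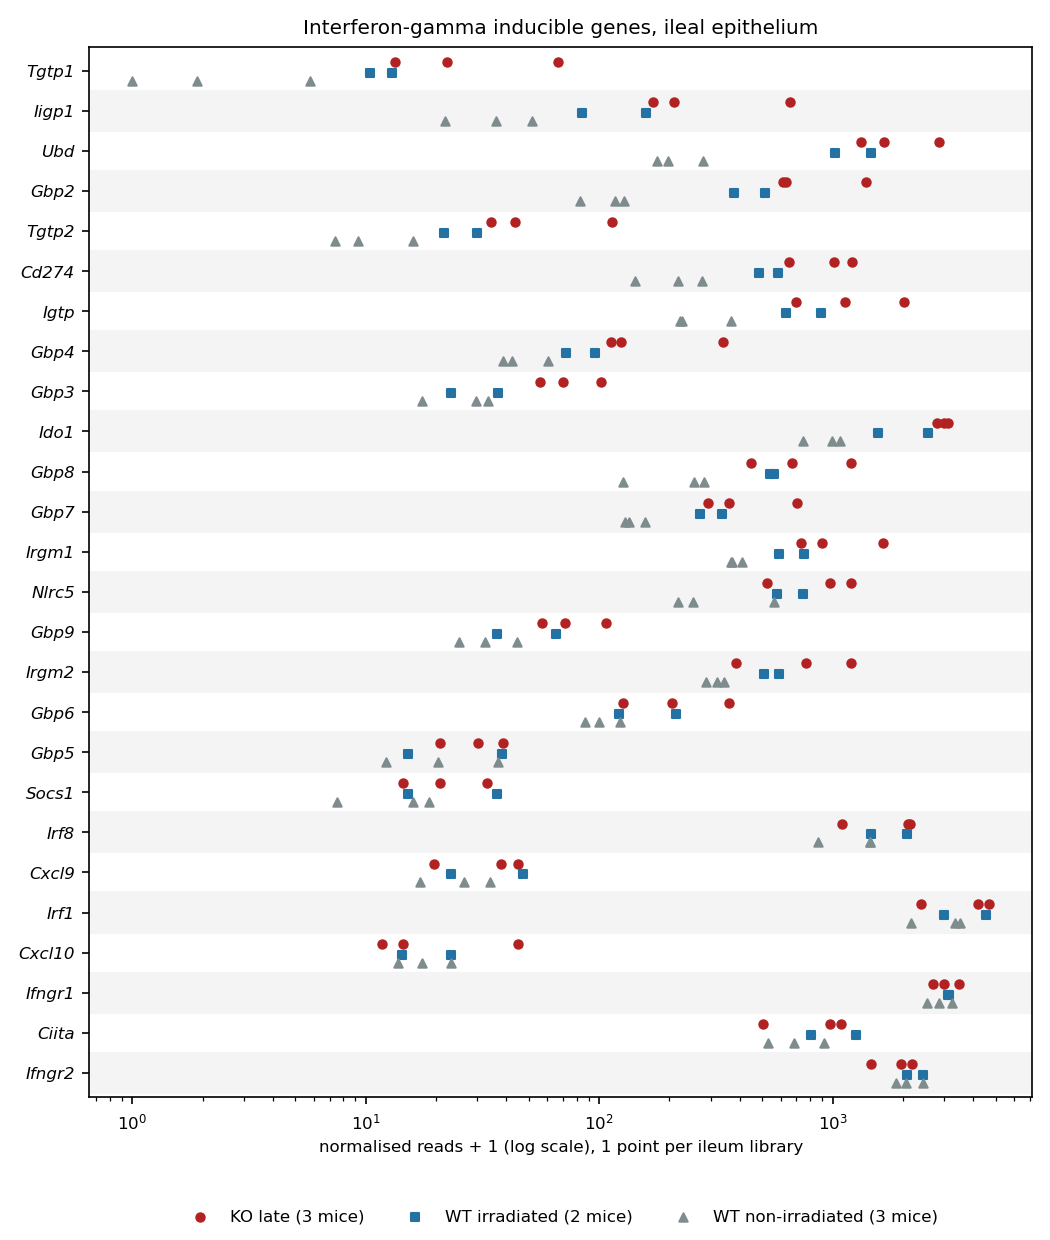
Normalised reads plus 1 (log axis) of 26 of the 27 interferon-gamma inducible genes in each ileum library, ordered from the most positive log2 fold change at the top; KO late mice (circles) are drawn above WT irradiated (squares) and WT non-irradiated mice (triangles). In rows such as Gbp2 the WT irradiated points lie between the KO late and the WT non-irradiated points.

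Promoter windows from RefSeq (build GRCm38.p6, 250 bases before the annotated start) are shown for Gbp2 and Tgtp2, whose KO late and WT libraries did not overlap, and for Cyp3a11 from the lower side. The windows were searched on both strands for GAAANNGAAA, the core of the interferon-stimulated response element, for TTCNNNGAA, the gamma-activated site, and for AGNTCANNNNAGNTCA, a direct repeat that nuclear receptors can bind. Capitals mark the matches, and each sequence runs 5′ to 3′ on the strand of the gene, ending at the base before the start. The windows shown were picked among those with a match. The windows of Cd274, Ifih1, Rdh7, Gstm3, Gstm1, Cyp3a25 and Cyp2c55, whose groups did not overlap either, held no match.
Gbp2 (chr3:142620413-142620662, plus strand): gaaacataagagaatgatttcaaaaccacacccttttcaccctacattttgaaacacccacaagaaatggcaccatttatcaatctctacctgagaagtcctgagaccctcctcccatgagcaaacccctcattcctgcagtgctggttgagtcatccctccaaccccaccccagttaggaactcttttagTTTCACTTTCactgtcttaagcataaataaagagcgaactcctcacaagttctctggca
Tgtp2 (chr11:49064213-49064462, minus strand): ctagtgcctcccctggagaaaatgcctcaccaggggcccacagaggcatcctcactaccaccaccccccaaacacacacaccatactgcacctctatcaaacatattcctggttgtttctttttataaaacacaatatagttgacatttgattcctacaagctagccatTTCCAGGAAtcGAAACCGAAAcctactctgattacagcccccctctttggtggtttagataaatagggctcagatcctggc
Cyp3a11 (chr5:145879855-145880104, minus strand): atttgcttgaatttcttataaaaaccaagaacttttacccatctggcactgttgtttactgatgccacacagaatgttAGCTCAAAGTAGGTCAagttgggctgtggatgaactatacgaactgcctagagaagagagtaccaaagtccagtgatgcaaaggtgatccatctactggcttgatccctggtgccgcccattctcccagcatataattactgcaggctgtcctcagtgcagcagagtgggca
In Gbp2 the match, on the opposite strand, begins 59 bases before the start. In Tgtp2 a gamma-activated site, 81 bases before the start, is followed by a response element at 70. The response element was present in 11 of the 18 interferon-gamma list members with a window (61.1%), against 936 of 27025 genes with a window (3.46%). The gamma-activated site was present in 8 of the 18 (44.4%), against 8.13% of all genes with a window. In Cyp3a11 a direct repeat begins 172 bases before the start. It was the only match to this repeat among 28 xenobiotic list members with a window, against 33 of all 27025 genes (0.122%). The windows were also searched for related repeats, a direct repeat with a shorter gap (DR3) and a repeat in opposite orientations (ER6). Each was found in 0 of the 28 members, against 16 (DR3) and 10 (ER6) of all 27025 genes. A match is a run of letters and was not tested as a binding site.

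Genes of the type I and III interferon response were less separated. Of 30 tested, 24 had a positive log2 fold change and the median was 0.40. At an unadjusted p under 0.05, 11 were higher (1.3% of all genes) and 1, Mx1, was lower (1.52%); none passed after adjustment. Without KO late mouse 57, 4 were higher (0.618% of all genes). The median was 0.38 against WT irradiated mice, with 4 higher (0.379% of all genes), and 0.48 against WT non-irradiated mice, with 8 higher (2.06%), and between the WT groups, irradiated over non-irradiated, it was -0.004. Zbp1, a sensor of unusual nucleic acids, measured 1220.2, 668 and 946 in KO late mice, against 606 and 592 in WT irradiated and 431, 348 and 208 in WT non-irradiated mice, without overlap (log2 fold change 1.17 ± 0.33). Oasl2, a member of the oligoadenylate synthetase family, measured 1595, 918 and 1268 in KO late mice, against 647 and 825 in WT irradiated and 947, 667 and 751 in WT non-irradiated mice, so 1 WT library lay above the lowest KO late one. Ddx60, a helicase of the antiviral response, is not on this list and is given as a leading gene. It had 3085, 2799.8 and 3580.3 in KO late mice, with a log2 fold change of 0.87 ± 0.21. WT irradiated mice had 1666 and 1785, and WT non-irradiated mice 1723, 1179.6 and 2441. Isg15, a ubiquitin-like product of the same response, had 0.15 ± 0.39.

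The antigen presentation lists gave values near the rest. Of 18 MHC class I presentation genes the median was 0.22. H2-K1 was the only one at an unadjusted p under 0.05 (log2 fold change 0.55), where 1.3% of all genes were higher. Of 10 tested MHC class II genes the median was 0.08, and H2-Ab1, a class II beta chain, measured 5629.7, 2638 and 4984 in KO late mice, against 6756 and 4049 in WT irradiated and 4098, 4165 and 2612 in WT non-irradiated mice. These ranges overlapped fully, and the log2 fold change was 0.02 ± 0.30.

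The antimicrobial and IL-22 response list, the readout that the title of the series points to, had no member called by limma in the ileum. Of 28 listed genes 22 were tested (Saa2, Saa3, Lcn2, S100a8, S100a9 and Lrg1 were too low), and the median log2 fold change was -0.10. At an unadjusted p under 0.05, 0 were higher (1.3% of all genes) and 1 was lower (1.52%). The median was -0.27 against WT irradiated and 0.05 against WT non-irradiated mice. The receptor chains Il22ra1 and Il10rb had log2 fold changes of -0.33 ± 0.18 and -0.12 ± 0.19, and Stat3, the transcription factor that the receptor activates, 0.09 ± 0.19.

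Reg3b, an antimicrobial lectin, measured 133115, 80557 and 204815 normalised reads in KO late mice, against 203994 and 152385 in WT irradiated and 105409, 54467 and 90888 in WT non-irradiated mice. The KO late range overlapped that of both WT groups, and both WT irradiated values were above all WT non-irradiated values. The log2 fold change was 0.24 ± 0.43 against all WT, -0.44 against WT irradiated and 0.69 against WT non-irradiated mice, and Reg3g, its close relative, gave 0.24 ± 0.44. Reg3a, the third lectin of this family, went the other way and was the listed gene at an unadjusted p under 0.05: it measured 537, 429.6 and 587 in KO late mice, against 941 and 1199.8 in WT irradiated and 1114, 865 and 1228 in WT non-irradiated mice. Its groups did not overlap, the log2 fold change was -1.04 ± 0.18 (limma adjusted p = 0.342, DESeq2 adjusted p = 0.000239), and both WT groups were at a like level.

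Other named targets overlapped between the groups. Saa1, an acute-phase protein, measured 483, 113 and 320.0 in KO late mice, against 1449 and 339.6 in WT irradiated and 799, 392 and 287 in WT non-irradiated mice, a log2 fold change of -1.04 ± 0.54. Socs3, the feedback inhibitor of Stat3 signalling, measured 965, 508 and 589.8 in KO late mice, against 1073 and 224 in WT irradiated and 275, 374 and 226 in WT non-irradiated mice. All KO late values lay above 4 of the 5 WT values, and WT irradiated mouse 59 was highest of all; the log2 fold change was 0.90 ± 0.44. Clca4b, of the chloride channel accessory family, had a log2 fold change of 0.09 ± 0.24, Fut2, a fucosyltransferase that decorates the epithelial surface, 0.06 ± 0.41, Duox2, which makes hydrogen peroxide at the apical membrane, -0.17 ± 0.43, and Nos2, the inducible nitric oxide synthase, -0.04 ± 0.30. Lcn2, an iron-trapping antimicrobial protein, was too low to test, at 6.7, 2.2 and 0.9 in KO late mice, against 3.2 and 2.3 in WT irradiated and 0.0, 4.5 and 2.8 in WT non-irradiated mice.

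S100g, the vitamin D-dependent calcium-binding protein of absorptive cells, measured 76.1, 56.9 and 184 in KO late mice, against 37.2 and 28.1 in WT irradiated and 27.2, 19.4 and 31.4 in WT non-irradiated mice. The groups did not overlap and mouse 57 was highest; the log2 fold change was 1.69 ± 0.38 (limma adjusted p = 0.835, DESeq2 adjusted p = 0.00398). Slc30a10, a manganese exporter, measured 1235, 814 and 1315 in KO late mice, against 645 and 598 in WT irradiated and 545, 401 and 749 in WT non-irradiated mice, a log2 fold change of 0.93 ± 0.23. Of 18 genes of iron and zinc handling, 2 were higher (1.3% of all genes) and 1 lower (1.52%) at an unadjusted p under 0.05, with a median of -0.17. The other higher one was Tfrc, the transferrin receptor, with 4297, 7185 and 11021 in KO late mice, against 3124 and 4497 in WT irradiated and 2909, 2702 and 2444 in WT non-irradiated mice. KO late mouse 49 lay below WT irradiated mouse 61, so the groups overlapped (log2 fold change 1.19 ± 0.28, DESeq2 adjusted p = 0.0261). The lower one was Fth1, the ferritin heavy chain that stores iron, with 2334, 1962 and 2211 in KO late mice, against 3254 and 2804 in WT irradiated and 3859, 2738 and 3958 in WT non-irradiated mice, without overlap (log2 fold change -0.60 ± 0.18).

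The remaining leading genes on the higher side had no list in common. Wdpcp, a planar cell polarity effector needed for cilia, measured 1934, 2092 and 2142 in KO late mice, against 1122 and 936 in WT irradiated and 482, 768 and 1024 in WT non-irradiated mice, the smallest p on this side (log2 fold change 1.30 ± 0.24, limma adjusted p = 0.420, DESeq2 adjusted p = 0.00398). Areg, a ligand of the epidermal growth factor receptor, measured 973, 1013 and 1067 in KO late mice, against 557 and 386 in WT irradiated and 307, 792 and 256 in WT non-irradiated mice. The KO late values were within a narrow range above all WT values (log2 fold change 1.27 ± 0.31). Jdp2, a repressor of the AP-1 family, had a log2 fold change of 1.46 ± 0.34, Cemip, which takes part in hyaluronan breakdown, 1.07 ± 0.26, Unc93a 1.13 ± 0.28 and Mfsd7c 0.83 ± 0.21. In RefSeq annotation Wdpcp, Cemip, Slc30a10, Unc93a, Cd274 and S100g overlap another gene, and the sources used here do not say whether counting used strand.

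Lists for ileal function and cell types had no member called by limma. Tuft cell markers had a median log2 fold change of -0.27, with 13 of 17 negative, and enteroendocrine markers -0.22, with 16 of 21 negative. Bile acid handling had a median log2 fold change of -0.06 over 10 tested genes. The bile acid importer Slc10a2 measured 2352, 1541 and 4178 in KO late mice, against 4042 and 2731 in WT irradiated and 2732, 1868 and 3255 in WT non-irradiated mice, with full overlap (log2 fold change -0.20 ± 0.30), and the bile acid-binding Fabp6 gave 0.12 ± 0.35. Lipid absorption had a median of -0.18 over 23 genes. At an unadjusted p under 0.05, Fabp1, a fatty acid-binding protein, was lower at -1.14 (1.52% of all genes). Cd36, a fatty acid receptor, was higher at 0.52 (1.3% of all genes). In the brush border list (median -0.01, 23 genes) 2 members were higher (1.3% of all genes) and 1 lower (1.52%) at an unadjusted p under 0.05. The lower one was Lct, the milk-sugar hydrolase, at -1.56 ± 0.49. For Lct, KO late mouse 57 was lowest of all at 1142, with 6316 and 3898 in the other KO late mice. WT irradiated mice held 8821 and 4254, and WT non-irradiated mice 12942, 8985 and 13203. Cell cycle genes had a median of 0.23 with 26 of 27 positive and 0 at an unadjusted p under 0.05 (2.82% of all genes). Paneth cell markers had a median of -0.23, which moved between -0.84 and 0.45 as single libraries were left out.

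**Figure D4:**
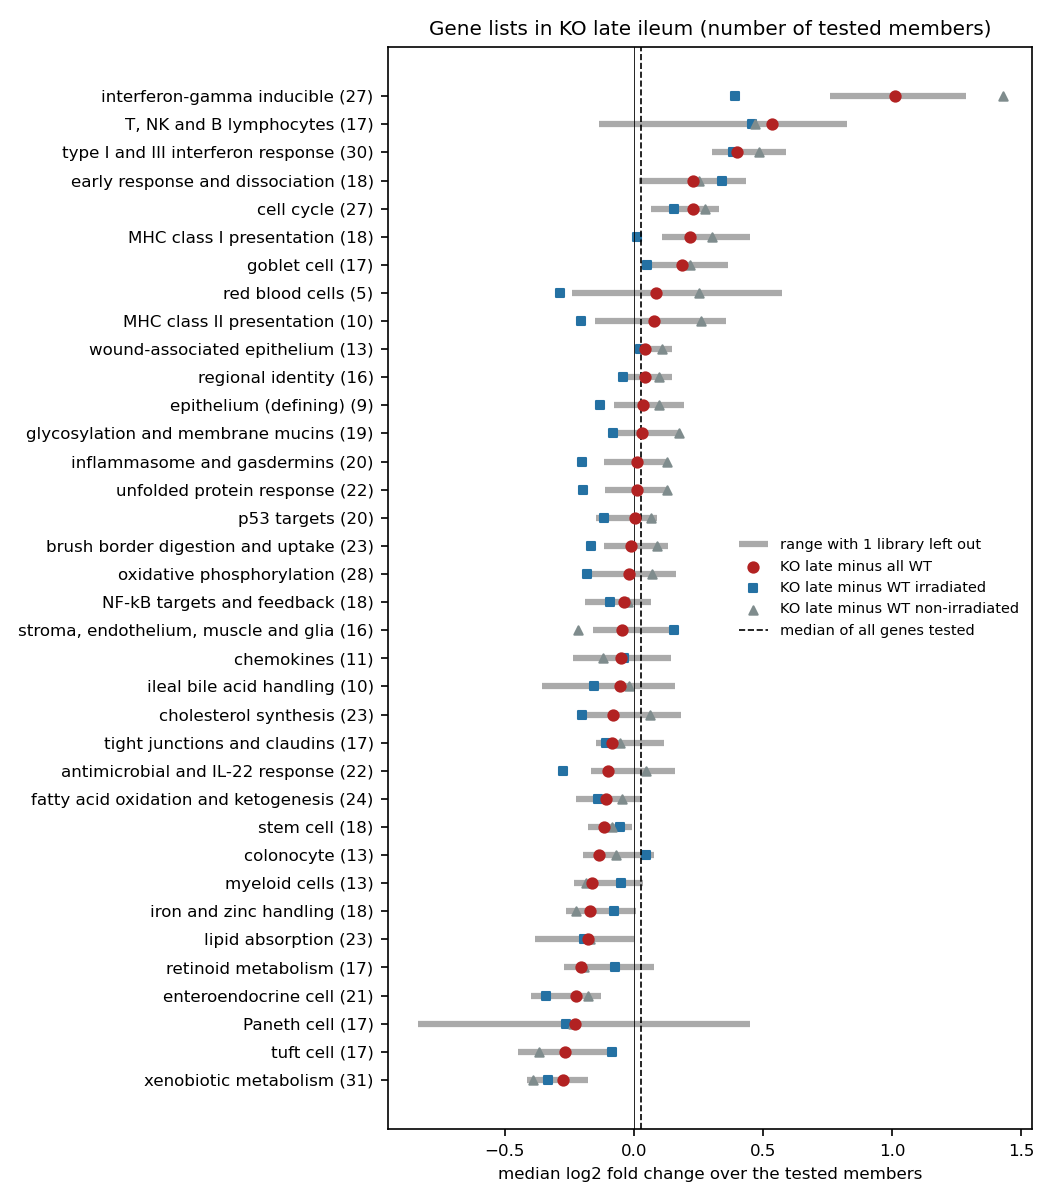
Median log2 fold change of the tested members of each of 36 gene lists (circles, KO late minus all WT), with the medians against WT irradiated (squares) and WT non-irradiated mice (triangles) and the range when 1 library is left out (grey bars); the dashed line is the median of all genes tested, 0.03. Interferon-gamma inducible genes stand highest at 1.01 with the widest gap between the medians against either WT group, and xenobiotic metabolism at -0.28 and tuft cell markers at -0.27 stand lowest.

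The same 8 mice also gave colon libraries, so the KO late effect in ileum was tested against that in colon. The interaction, ileum minus colon, was called by limma for 263 of 18994 genes (1.38%), with 135 (0.711%) having the ileum effect above the colon effect and 128 (0.674%) below. With the mouse as a replicate block, 683 genes were called (3.6%), 426 above and 257 below. From the same fit of 16 libraries, without the block, KO late against all WT in colon gave 2068 called genes (10.9%). The ileum calls above came from a separate fit of 8 libraries with its own gene filter. The counts for colon and ileum are therefore not on like terms. Without mouse 50, 57 or 72 the interaction count without the block was 101, 124 or 166.

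For several antimicrobial genes the KO late effect differed between the tissues. Reg3b had a log2 fold change of 0.24 in ileum and 5.86 in colon, a difference of -5.62 ± 0.80 (limma adjusted p = 0.000761). WT colon started from a low level: Reg3b measured 25180.1, 71601 and 149373 in KO late colon, against 701 and 950.1 in WT irradiated and 758, 929.6 and 3606 in WT non-irradiated colon, while the lowest ileum library held 54467. Clca4b measured 35428, 31224 and 34398 in KO late ileum, against 35156 and 32656 in WT irradiated and 33272, 20342 and 40320.0 in WT non-irradiated ileum. In colon it measured 40109, 73441 and 103360.0 in KO late mice, against 372 and 256 in WT irradiated and 312, 275 and 276 in WT non-irradiated mice. The KO late colon held Clca4b above the level of every ileum library but 1, and the difference of effects was -7.73 ± 0.37 (limma adjusted p = 8.48e-10). Nos2 (-4.10 ± 0.45), Reg3g (-6.12 ± 0.72) and Lcn2 (-4.21 ± 0.87) also passed the interaction test, as did Reg3a (-2.21 ± 0.44), which was low in KO late ileum and called higher in KO late colon.

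The largest differences below colon also included S100a8 (-9.53 ± 1.15) and S100a9 (-6.96 ± 1.26), the calprotectin subunits, and Sprr2h (-5.81 ± 1.11), a cornified envelope protein, all below 20 normalised reads in every ileum library. The largest above colon were Ang4, a microbicidal ribonuclease, Mptx1, a pentraxin, Sult1a1, a sulfotransferase, the protease Prss23 and Pck1, the rate-limiting enzyme of gluconeogenesis. Ang4, Mptx1 and Sult1a1 had log2 fold changes of -0.01, -1.32 and -0.07 in ileum and of -6.44, -7.42 and -4.72 in colon. In the ileum libraries Sult1a1 held only 8.7 to 23.9 normalised reads and Mptx1 6.6 to 152. For Prss23 the ileum held 1227, 956 and 1697 in KO late mice, against 1335 and 1304 in WT irradiated and 1436, 1011 and 1429 in WT non-irradiated mice, while colon held 73.1, 47.5 and 47.3 in KO late mice, against 1214 and 1229 in WT irradiated and 1213, 1558 and 1407 in WT non-irradiated mice. The ileum values overlapped and the colon values did not, a difference of 4.52 ± 0.29 (limma adjusted p = 5.47e-08). Pck1 measured 1327, 1769.8 and 1321 in KO late ileum, against 1443 and 193 in WT irradiated and 339, 747 and 276 in WT non-irradiated ileum, with WT irradiated mouse 59 inside the KO late range; its log2 fold change was 1.68 ± 0.51 in ileum and -2.81 ± 0.50 in colon.

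S100g and Slc30a10, higher-side leading genes of the ileum, had log2 fold changes of -1.84 ± 0.48 and -3.03 ± 0.33 in colon, so that the differences of 3.53 ± 0.68 (limma adjusted p = 0.00984) and 3.96 ± 0.47 (0.000126) passed the test. Rdh7 was at 10 normalised reads or fewer in every colon library, where its log2 fold change was 0.32 ± 0.29, and the difference was -1.71 ± 0.41 (0.0428). Gstm3 (-1.50 ± 0.25), Dio1 (-1.64 ± 0.36) and Aadac (-2.50 ± 0.30), low in KO late ileum, were called lower in KO late colon as well. The interaction was not called for these 3 genes without the replicate block; with it, limma called Aadac (1.42 ± 0.36, adjusted p = 0.0364). Among named genes the block also added Cyp3a11 (-2.02, 0.0208) and Ddx60 (1.67, 0.0314). The interferon-gamma list had a median of 1.65 in colon and 1.01 in ileum, with 0 of 27 members called above and 2, Gbp4 and Cxcl9, called below colon, where the shares among all genes were 0.711% and 0.674%. With the replicate block Gbp5 was called below colon as well (limma adjusted p = 0.0318). The xenobiotic list had a median of -0.48 in colon and -0.28 in ileum, so it was not lower in ileum only. Of its 31 members, 3 were called above colon (0.711% of all genes) and 1 below (0.674%), without the block.

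**Figure D5:**
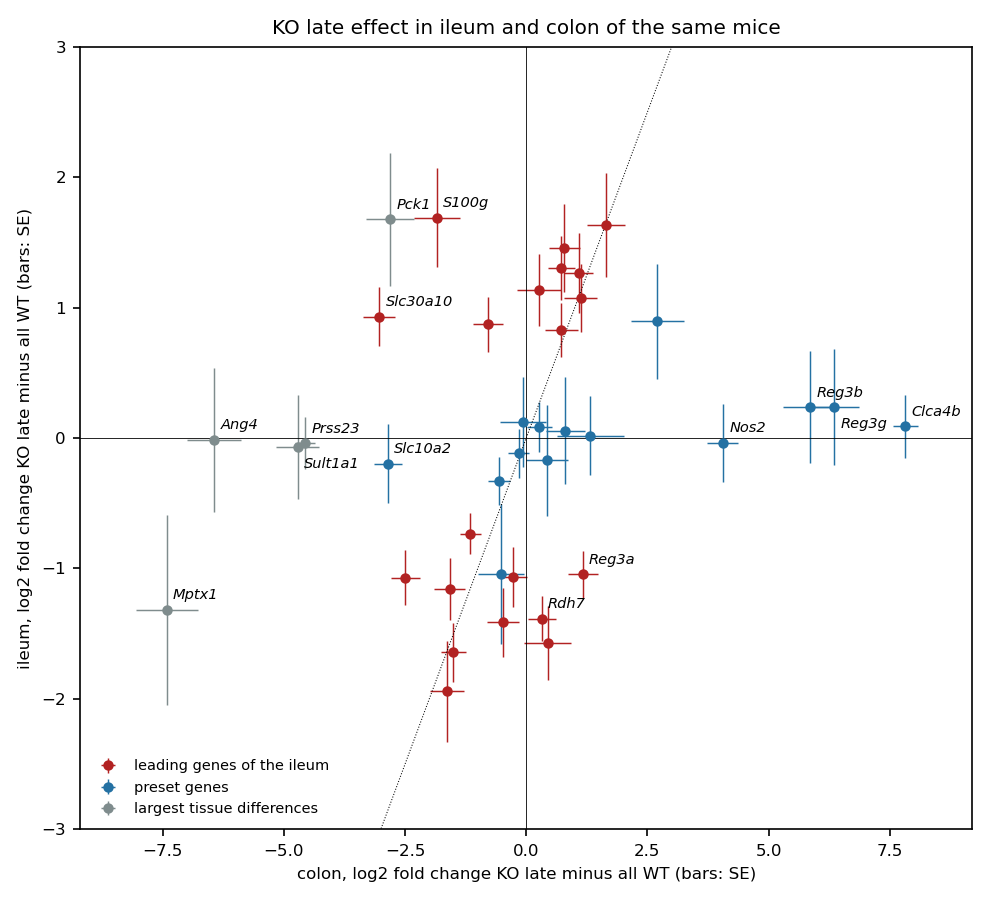
Log2 fold change of KO late minus all WT in ileum (vertical axis) against colon (horizontal axis) for named genes tested in both, with SE bars; the axes differ in scale and the dotted line marks equal effects. Reg3b, Reg3g, Nos2 and Clca4b lie far right near 0 on the ileum axis, S100g, Slc30a10 and Pck1 lie upper left, and labels mark genes whose interaction was called by limma.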

How the data were processed

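RNA-seq of sorted epithelium was used from 16 libraries (8 mice, ileum and colon). A kit for stranded, ribosome-depleted RNA (100 ng input) and single reads of 50 bases on 3 lanes were used, per the labels' protocols; another label gives polyA RNA, and which is right was not settled. Per the submitters' processing notes, reads went through bcl2fastq, HISAT 0.1.6 and HOMER on mm9. The table deposited by the authors holds 1 signal per gene and library (24421 genes), as reads divided by a size factor. In all 16 libraries 100% of low values were whole multiples of 1 read within 0.05 plus rounding, so whole reads were recovered for the count tools. The promoter sequences come from GRCm38.p6, and no coordinates of the deposited files are given.

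Because the values were normalised, the main test was limma 3.58.1 with trend on log2(value + 1), for genes that reached 10 normalised reads in 3 or more libraries, with Benjamini-Hochberg adjustment over all genes and a call at an adjusted p under 0.05. Fold changes are on that log2 scale, which understates low genes. The ileum fit held 8 libraries in 2 groups, and the interaction fit 16. Colon fold changes and calls were taken from the interaction fit, without the block. Alternatives were edgeR 4.0.16 (quasi-likelihood) and DESeq2 1.42.0 on recovered reads, TMM, scaling by totals, other pseudocounts and filters, other control groups, the KO early libraries in the fit, a covariate for receptor reads, and leaving out each mouse. The labels tie ileum and colon to 1 mouse, so a replicate block was fitted for the interaction; the correlation of the deviations of the 2 tissues was -0.40 to 0.57 per mouse outside WT irradiated mice and 0.72 within them. Steps were tested on simulated data. The closest pair of libraries differed by far more than sampling noise (chi-square per gene 15.6), so none was counted as a repeat.

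Named genes were the 10 with the smallest p in each direction among those averaging 100 normalised reads or more in the higher group, no overlap between groups and an established name, since too few were called to fill the places; 16 preset genes; and the 5 largest called interactions in each direction. Other genes are list members singled out after their values were seen. The members, the 36 lists (718 genes, 708 in the table) and the tests were chosen with earlier results of these data known. Results for some single genes are not reported here. Intervals from depth cover counting error only.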

Additional observations from a re-analysis of the deposited data

Results flagged for a closer look

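Socs3 stood out in 1 WT library: WT irradiated mouse 59 had 1073 normalised reads, far above the other 4 WT ileum libraries, which held 224 to 374. Chance marks about 1 in 20 groups of this kind.

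The KO late effect differed between ileum and colon by an interaction test (limma) for 18 named genes. On the log2 scale, ileum minus colon, it was 3.53 for S100g, 3.96 for Slc30a10, 2.66 for Slc10a2, 6.43 for Ang4, 6.10 for Mptx1, 4.65 for Sult1a1, 4.52 for Prss23 and 4.49 for Pck1. It was -1.71 for Rdh7, -2.21 for Reg3a, -5.62 for Reg3b, -6.12 for Reg3g, -7.73 for Clca4b, -4.21 for Lcn2, -4.10 for Nos2, -9.53 for S100a8, -6.96 for S100a9 and -5.81 for Sprr2h. The 5 largest in each direction were chosen for that size.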

How the results depend on the processing

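In the ileum, 0 genes were called in the fit as reported, with edgeR, scaling by totals without Rn45s, pseudocounts of 0.5 and 10, WT irradiated mice alone as control, the mean of both WT groups and all 12 ileum libraries. DESeq2 called 21; TMM scaling, no filter and a filter of 50 normalised reads each called 1 (Rdh7); WT non-irradiated mice alone as control gave 4; the receptor covariate gave 2 (Rdh7 and Gstm3). Leaving out 1 library gave 0 to 2, the 2 (Rdh7 and Gstm3) without WT irradiated mouse 59. The causes were not tested. No paired analysis was possible within the ileum because the groups share no mouse numbers.

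For the interaction, called for 263 genes, the replicate block (pairing ileum and colon of 1 mouse) gave 683, DESeq2 609, and leaving out 1 mouse 101 to 309; the cause was not tested. Genes that did not reach 10 normalised reads in 3 ileum libraries, Il10ra and Lcn2 among them, were not tested in the ileum.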

Other observations

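Enteroendocrine markers had a median log2 fold change of -0.22 over 21 tested genes, with 2 lower at an unadjusted limma p under 0.05 (1.52% of all genes): the hormone gene Sst, at 81.4, 53.6 and 51.3 normalised reads in KO late mice, against 106 and 89.8 in WT irradiated and 158, 101 and 72.0 in WT non-irradiated mice, and Insm1, a transcription factor of these cells, at 10.7, 14.5 and 9.5 in KO late mice, against 26.1 and 22.6 in WT irradiated and 28.8, 20.9 and 25.8 in WT non-irradiated mice. Insm1 did not overlap between the groups and Sst did. Among wound-associated genes Hbegf, a ligand of the epidermal growth factor receptor like Areg, had a log2 fold change of 0.85 and Clu, a secreted chaperone, -1.03. None of these passed after adjustment.

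Early response genes, which also move with tissue dissociation, had a median of 0.23 over 18 genes, with Atf3 at 7011, 6709 and 4208 normalised reads in KO late mice, against 5666 and 2757 in WT irradiated and 2032, 5514 and 1615 in WT non-irradiated mice. The groups overlapped.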
